A study of Mus musculus with 4 samples.

Results

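The neuronal structure and synapse genes are Map2, Stmn2, Syt1, Snap25, Syn1, Gap43, Nefl, Nefm, Elavl3 and Elavl4, 10 of the 36499 gene names or identifiers on the array. They were chosen by name, with earlier results of these data known. All 10 had a probe, and Map2 and Elavl4 had 2, which made 12 probes of 55681. The file lists Map2 under its older symbol Mtap2, and it was found through its RefSeq accession.

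Developing neurons switch on a shared set of genes when they leave the cell cycle. Microtubule-associated proteins, stathmins, growth cone proteins and neurofilaments build the axon and dendrites, the SNARE machinery with its calcium sensor releases neurotransmitter from synaptic vesicles, and the neuronal ELAV-like (Hu) proteins bind AU-rich elements of mRNAs and stabilize them. Neural stem/progenitor cells (NSPCs) can form neurons, astrocytes and oligodendrocytes, and the levels of such genes in an NSPC culture are read as a measure of neuronal differentiation.

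The study asked how PJ34, an inhibitor of poly(ADP-ribose) polymerases, changes the transcripts of NSPCs with and without the tumour suppressor p53. NSPCs from embryonic day 13.5 mouse embryos of the strain Slc:ICR, either wild-type or Trp53-/-, were grown as neurospheres with EGF and FGF. Cells given 20 μM PJ34 were compared with untreated cells of the same genotype on 2-colour arrays of 60-base probes, with PJ34 RNA in Cy5 and control RNA in Cy3, on 2 arrays a genotype from independently prepared RNA. The duration of treatment before RNA extraction and the number of embryos behind a preparation are not given in the sources used here. The Trp53-/- line was obtained as heterozygous mice, and wild-type and Trp53-/- cells are different cultures. No dye swap was made. A dye bias of a probe and the effect of PJ34 therefore cannot be told apart in a genotype, whereas such a bias cancels in the difference between genotypes.

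Between 21505 and 24540 probes per array were well above background in the control channel and between 26081 and 27156 in the PJ34 channel. The number of arrays limits the precision. The Trp53 probe gave control levels of 8.28 and 8.51 on the wild-type arrays and of 7.56 and 7.82 on the Trp53-/- arrays (log2 intensity), and whether it lies in the deleted part is not given in the sources used here. The p53 target Cdkn1a had log2 ratios of PJ34 over control of 1.84 and 1.23 in wild-type and of -0.48 and -0.74 in Trp53-/- cells. Trp53-/- replicate 2 stood apart in Y-linked genes. Its ratios were 3.12 for Ddx3y and 4.22 for Eif2s3y, with -1.39 for the X-linked Xist. In the control channels Ddx3y was 8.25 and 8.06 on the wild-type arrays, and both Trp53-/- arrays were below the limit for well above background. The Ddx3y and Eif2s3y signal of Trp53-/- replicate 2 was therefore in its PJ34 channel and not in its control channel. Whether the RNA of these channels came from matched cells is not given in the sources used here. On that array a difference between the cells and the effect of PJ34 cannot be told apart. The part of this in the results was not tested, and values without that array are given beside the Trp53-/- results.

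As to the label, 7 of the 10 genes were well above background in the control channel of all 4 arrays, so these untreated NSPC cultures held RNA of neuronal structure and synapse genes. Stmn2, a regulator of microtubule dynamics in growing axons, was in no control channel. Of the markers of other cells, all 13 neural stem cell markers, 8 of 9 astrocyte markers and all 10 oligodendrocyte lineage markers were well above background in every control channel. Of the microglia and blood cell markers on the array 6 of 8, and of the vessel and mesenchyme markers 6 of 9, were in none. In these bulk samples fewer cells of a type and less RNA per cell cannot be told apart.

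The probes decide what is measured for each gene, and a few of their sequences are shown here. The part of the probe sequence in the values was not tested. The Elavl4 probes are shown because they gave different responses to PJ34 (first 30 of 60 bases). They start at bases 2921 and 1818 of the same RefSeq record, at chr4:109877455-109877514 and chr4:109878558-109878617 on the minus strand (mm9).
Elavl4, brighter probe: gggaagaagcatattactgtgtccttctgt
Elavl4, dimmer probe: ctttaccaccttccttgaaggtgggtcttt
The Snap25 probe (chr2:136607709-136607768, plus strand, mm9) is shown because it opens with a run of 20 bases of CA repeat, in capitals below (first 30 bases). The same run is in 71 of the 55681 probes (0.128%).
Snap25: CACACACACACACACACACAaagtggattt
The Nefm probe (chr14:68738193-68738252, minus strand, mm9) is shown whole because it was printed in 10 spots per array, which gives an error of the measurement itself. It lies in the coding sequence.
Nefm: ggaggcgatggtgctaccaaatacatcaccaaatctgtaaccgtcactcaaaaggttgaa

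Among the genes of the cytoskeleton, the values for PJ34 over control ranged from no detectable change to 1.49-fold. Responses are given on the log2 scale as PJ34 over control, where 1 means 2-fold. Nefl, the neurofilament light chain, had ratios of 0.37 and 0.77 on the wild-type arrays and of 0.55 and 0.48 on the Trp53-/- arrays. All 4 were positive and the genotypes overlapped. The mean was 0.57 ± 0.28 (SD, n = 2) in wild-type, or 1.49-fold, and 0.52 ± 0.05 (SD, n = 2) in Trp53-/- cells, or 1.43-fold. Both passed limma's test at p and q below 0.05 (q = 0.00303 and 0.00587). Nefl was dim. Its control channel was well above background on 1 of 2 arrays of each genotype, with a mean signal of 46.0 to 69.3 beside a local background of 22 to 40. Its size depended on the processing. With no background correction it was 0.74 in wild-type and 0.60 in Trp53-/- cells, and with an offset of 16 it was 0.86 and 0.75. The scanner software's own ratio, which differs in both background and normalization, gave 1.83 in wild-type (q = 0.0512) and 1.33 in Trp53-/- cells (q = 0.0778).

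Nefm, the medium neurofilament chain, had ratios of 0.06 and -0.02 in wild-type and of 0.02 and 0.16 in Trp53-/- cells, none of them far from 0. Between the spots of the Nefm probe within an array, the SD of the log2 ratio was 0.02 to 0.13 over 6 to 9 spots left after outliers. In wild-type cells the control channel of Nefm was not well above background on either array, so its control level is only an upper bound there. The measured ratio of 1.01-fold for PJ34 over control is then a lower limit that is open to dye bias. Nefm's own control level was above the lowest level well above background on each of these arrays, so the limit equals the measured ratio.

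Map2, a microtubule-associated protein of dendrites, gave 0.39 and 0.29 in wild-type and 0.28 and 0.14 in Trp53-/- cells by its brighter probe. Its other probe gave 0.53, 0.44, 0.41 and 0.32 in the same order. All 8 values were positive. By the brighter probe the wild-type mean of 0.34 ± 0.07 (SD, n = 2) passed at q = 0.0160, whereas the Trp53-/- mean of 0.21 ± 0.10 (SD, n = 2) gave q = 0.0777. By the other probe both passed (0.48 with q = 0.00290, and 0.36 with q = 0.0124).

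Stmn2 had ratios of 0.09, 0.06, -0.01 and -0.04 over wild-type replicates 1 and 2 and Trp53-/- replicates 1 and 2. It was near background throughout, and its PJ34 channel was well above background on the Trp53-/- arrays alone, so no fold is given. Gap43, a membrane protein of growth cones, was the 1 gene negative on all 4 arrays, with -0.23 and -0.23 in wild-type and -0.31 and -0.12 in Trp53-/- cells. Its means of -0.23 (q = 0.0611) and -0.21 (q = 0.0787) did not pass.

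**Figure D1:**
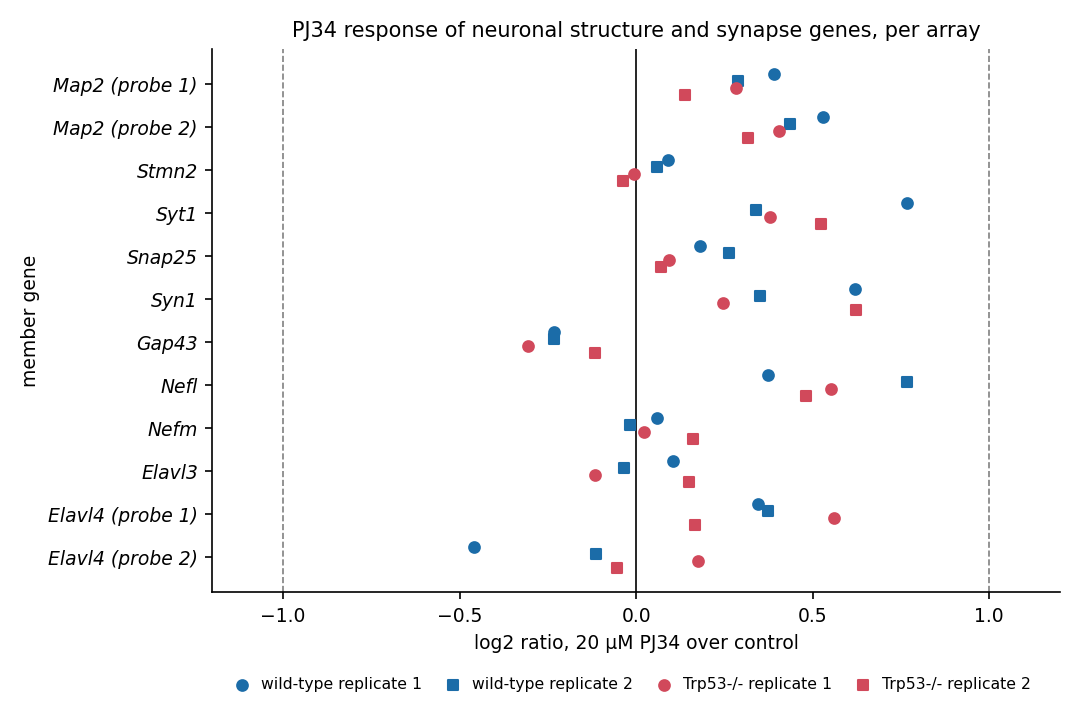
Log2 ratio of 20 μM PJ34 over control (x axis) on each of the 4 arrays for the 12 probes of the 10 genes (y axis). Dashed lines mark a 2-fold change, and the brighter probe of Map2 and Elavl4 is probe 1. Every point lies between -0.46 and 0.77, inside the dashed lines, and Gap43 is the gene with all 4 points left of 0.

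Among the genes of vesicle release, Syt1 and Syn1 had positive ratios on every array. Syt1, the calcium sensor of fast transmitter release, had 0.77 and 0.34 in wild-type and 0.38 and 0.52 in Trp53-/- cells. The replicates of wild-type differed by more than the genotypes did. The means were 0.55 ± 0.30 (SD, n = 2; q = 0.00435) and 0.45 ± 0.10 (SD, n = 2; q = 0.0122). Without Trp53-/- replicate 2 the Trp53-/- value of Syt1 was 0.38 (q = 0.134) and no longer passed. With the scanner software's ratio the wild-type mean was 0.96 (q = 0.0496), over 1.5 times as large.

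Syn1, which tethers synaptic vesicles to the cytoskeleton, had 0.62 and 0.35 in wild-type and 0.25 and 0.62 in Trp53-/- cells. The genotypes covered the same range. The means were 0.49 ± 0.19 (SD, n = 2; q = 0.00835) and 0.43 ± 0.27 (SD, n = 2; q = 0.0149). Syn1 is on the X chromosome, and its higher Trp53-/- value came from replicate 2, the array with the Y-linked ratios given above. Without that array the Trp53-/- value of Syn1 was 0.25 (q = 0.286).

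Snap25, a SNARE protein of the presynaptic membrane, had 0.18 and 0.26 in wild-type and 0.09 and 0.07 in Trp53-/- cells, all of them positive. The means of 0.22 (q = 0.0620) and 0.08 (q = 0.288) did not pass.

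The neuronal Hu proteins did not move as a pair. Elavl3 had 0.10 and -0.03 in wild-type and -0.12 and 0.15 in Trp53-/- cells, with both signs in each genotype. Elavl4 had 0.35 and 0.37 in wild-type and 0.56 and 0.17 in Trp53-/- cells by its brighter probe, all positive, with means of 0.36 (q = 0.0230) and 0.36 (q = 0.0235). Its dimmer probe gave -0.46 and -0.11 in wild-type and 0.18 and -0.05 in Trp53-/- cells. On both wild-type arrays the Elavl4 probes had opposite signs, and the dimmer probe's wild-type mean was -0.29 (q = 0.0529). The response of Elavl4 therefore depends on the probe, and which transcripts each probe detects was not tested.

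In wild-type cells none of the 10 genes was called, where a call asks for p and q below 0.05 and more than 2-fold. Over all 27042 probes tested, 0.263% were called higher and 0.174% lower. Without the fold limit 5 of 10 were higher (Nefl, Syt1, Syn1, Elavl4 and Map2) and 0 lower, beside 12.3% of all probes higher and 10.4% lower. Nefl entered the test through its PJ34 channel alone, so its place in the count adds no support. At an unadjusted p below 0.05 the count was 7, of which Gap43 was negative. The lower count of 0 became 1 when both channels had to be well above background on all arrays. It was also 1 with the mean of a gene's probes. The higher count was 5 under both, in the former without Nefl. The median of the 10 was 0.28, beside 0.03 over all probes. This count of 5 was 1 without wild-type replicate 1, 2 without wild-type replicate 2, and 1 with the scanner software's ratios.

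In Trp53-/- cells again none was called, beside 0.0703% of all probes called higher and 0.248% lower. Without the fold limit 4 of 10 were higher (Nefl, Syt1, Syn1 and Elavl4) and 0 lower, beside 12% of all probes higher and 9.68% lower. As in wild-type, the place of Nefl in the count adds no support. At an unadjusted p below 0.05 the count was 6, of which Gap43 was negative. The median of the 10 was 0.15, beside 0.03. Without replicate 2 the count of 4 was 2, Nefl at 0.55 (q = 0.0308) and Elavl4 at 0.56 (q = 0.0183). It was 3 without replicate 1 and 0 with the scanner software's ratios. With PJ34, 2 of the 10 oligodendrocyte lineage markers were called lower in the same cells, among them Mag (-1.36), and 6 of 10 passed p and q lower, with a median of -0.34. Mag was also called in the difference between genotypes (higher in wild-type, q = 0.0154). Of 4 vessel and mesenchyme markers tested Acta2, a smooth muscle actin, was called lower (-1.14). In wild-type cells Acta2 had -0.85, under the fold limit, and none of the 4 was called in the difference between genotypes. The part of oligodendrocyte lineage, vessel and mesenchyme cells in the values of the 10 genes was not tested.

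Across genotypes 6 of the 10 had a ratio above 0 on all 4 arrays, beside 23.6% of all probes, and 1 of 10 was below 0 on all 4, beside 16.9%. Nefl is 1 of the 6 and, entering through its PJ34 channel alone, adds no support. The zero point of the ratios is set by the normalization. When loess was replaced by median centring, the median of all probes moved to 0.42 in wild-type and 0.57 in Trp53-/- cells and Gap43 turned to 0.45 and 0.82. Relative to all probes the picture was closer, with 8 genes above that median in both genotypes, against 8 and 7 with loess.

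The response of the 10 genes did not differ detectably between the genotypes. None was called in the test of wild-type minus Trp53-/-, beside 0.399% of all probes called higher and 0.0222% lower, and none had p below 0.05 by its brightest probe. The differences ran from -0.07 for Nefm to 0.14 for Snap25, with a median of 0.05 beside -0.01 over all probes. For Nefl the difference was 0.05, with a 95% interval of -0.28 to 0.39. For Syn1 it was 0.05, with an interval of -0.30 to 0.41. For Syt1 it was 0.10, with an interval of -0.25 to 0.45. By the brightest probes the 95% intervals of all 10 genes lay between -0.36 and 0.45, which bounds the difference and does not show that the genotypes responded alike. The dimmer Elavl4 probe gave -0.35 (q = 0.261), and its interval of -0.69 to -0.006 excluded 0.

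**Figure D2:**
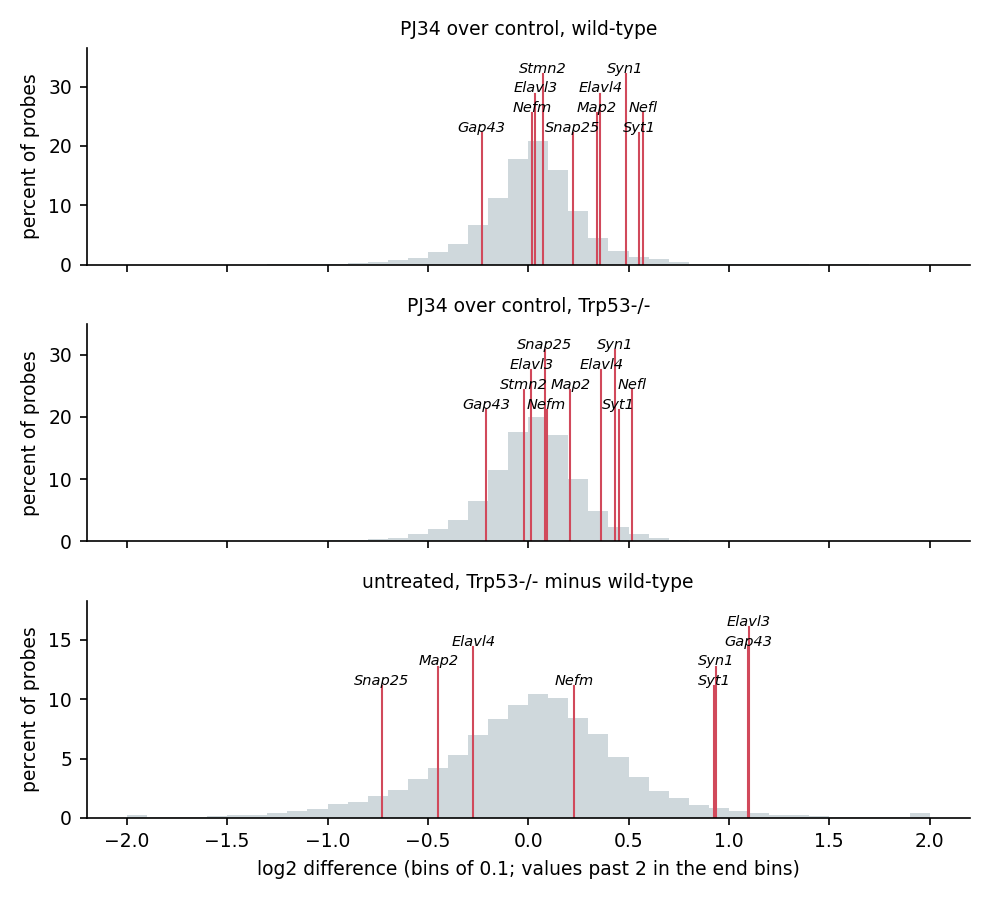
Percent of all probes tested (y axis, grey bars) by log2 difference (x axis, bins of 0.1) for PJ34 over control in wild-type, in Trp53-/- and for the untreated genotypes. Red lines mark the brightest probe of each gene. Nefl lies above 97.7% of all probes in wild-type and 98% in Trp53-/- cells, and Gap43 moves from the left of the distribution to the right in the untreated comparison.

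The untreated cultures differed more than the responses did. Elavl3, Syn1 and Syt1 were about 2-fold higher in the Trp53-/- control channels and Snap25 lower, while Gap43 had a difference as large as that of Elavl3 that missed the threshold. Levels are normalized log2 intensities of the control channel, tested as Trp53-/- minus wild-type over 22420 probes. 8 of the 10 genes had a control channel bright enough for the test. A level is compared here only with the same probe on other arrays, never between genes.

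Elavl3 had levels of 8.33 and 8.77 in untreated wild-type and of 9.58 and 9.72 in untreated Trp53-/- cells. Both Trp53-/- arrays were above both wild-type arrays. The difference of 1.10 (SE 0.21, q = 0.0294), or 2.14-fold, made Elavl3 the 1 gene of the 10 that was called. Beside it, 2.11% of all probes were called higher and 2.18% lower. The call was lost without either Trp53-/- array (1.17 with q = 0.176 without replicate 1, and 1.03 with q = 0.429 without replicate 2), without wild-type replicate 1 (0.88, under 2-fold), with median centring (0.97, under 2-fold) and with Benjamini-Hochberg adjustment (0.0527).

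Gap43 had the same size of difference with more spread, at 13.30 and 12.63 in wild-type and 14.28 and 13.84 in Trp53-/- cells. The groups did not overlap, and the difference of 1.10 (SE 0.28) missed the threshold at q = 0.0506. Its call depended on the setting. Gap43 was called with no background correction (q = 0.0499), a variance trend (0.0394), the mean of a gene's probes (0.0483), the separate-channel fit (0.0199) and the 75th percentile of the processed signal (1.21, q = 0.0470). It was also called with the replicate block (0.00137), although the replicate numbers were not taken as pairs, and without wild-type replicate 1 (1.43). It was not called with an offset of 16 (0.0519), Benjamini-Hochberg adjustment (0.0905) or median centring. Nor was it called without wild-type replicate 2 (0.76, under 2-fold) or without Trp53-/- replicate 1 (0.88) or replicate 2 (1.31). Syn1 had 8.64 and 9.17 in wild-type and 9.89 and 9.79 in Trp53-/- cells. Its difference of 0.94 (SE 0.23, q = 0.0459) passed p and q but was 1.91-fold, under the fold limit, and was called without wild-type replicate 2 (q = 0.000165). Syt1 had 7.14 and 7.15 in wild-type and 8.03 and 8.10 in Trp53-/- cells, the closest replicates among the genes tested. Its difference was 0.93 (SE 0.17, q = 0.0262), or 1.9-fold. With no background correction (1.11), an offset of 16 (1.15) and the 75th percentile of the processed signal (1.6) it was called.

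Snap25 went the other way, with 11.65 and 11.72 in wild-type and 11.06 and 10.84 in Trp53-/- cells. Both Trp53-/- arrays were below both wild-type arrays. The difference of -0.73 (SE 0.18, q = 0.0467) was 1.66-fold and under the fold limit. Its probe holds the CA repeat shown above, whose part in this value was not tested.

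Map2 had 12.54 and 11.70 in wild-type and 11.55 and 11.80 in Trp53-/- cells by its brighter probe, so the groups overlapped (-0.45, q = 0.230). The other probe gave -0.18 (q = 0.353). Elavl4 had 9.78 and 8.81 in wild-type and 8.97 and 9.08 in Trp53-/- cells, again overlapping (-0.27, q = 0.364), and its dimmer probe gave 0.14 (q = 0.444). For both genes wild-type replicate 1 was the brightest array by the brighter probe.

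The neurofilaments and Stmn2 were at or near background in untreated cells. Nefm had 6.46 and 6.64 in wild-type, not well above background, and 6.71 and 6.84 in Trp53-/- cells. The measured difference, 1.17-fold by the fit, did not pass (q = 0.271). Nefl had 6.53 and 6.63 in wild-type and 6.57 and 6.80 in Trp53-/- cells, and was well above background on 1 array of each genotype. Stmn2 had 6.12 and 6.18 in wild-type and 6.66 and 6.58 in Trp53-/- cells and was not well above background on any. Nefl and Stmn2 were not tested.

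**Figure D3:**
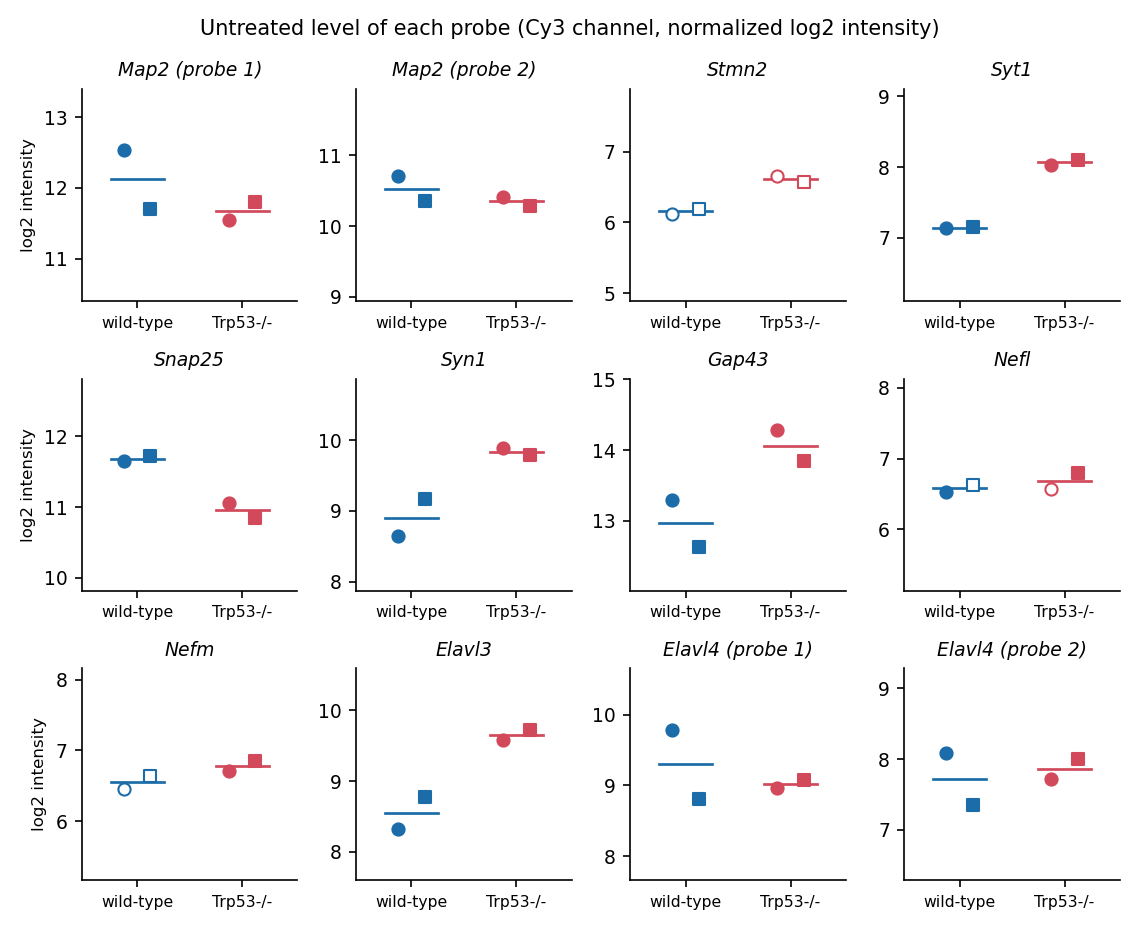
Normalized log2 intensity of the control channel (y axis) for each of the 12 probes on the wild-type (blue) and Trp53-/- (red) arrays. Circles are replicate 1, squares replicate 2, open symbols are not well above background, lines are means, and each panel spans 3 log2 units. The Trp53-/- points lie above both wild-type points for Syt1, Syn1, Gap43 and Elavl3 and below them for Snap25. They also lie above for Nefm and Stmn2, where the wild-type points are open.

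Of the 8 genes tested 5 had both Trp53-/- arrays above both wild-type arrays, beside 29.8% of all probes, and 1 had both below, beside 26.6%. Nefm is 1 of the 5. It passed the filter through its Trp53-/- arrays alone and was not well above background in wild-type, so its order adds no support. Without the fold limit 3 were higher (Elavl3, Syn1 and Syt1) and 1 lower (Snap25), beside 4.17% and 4.03% of all probes. With Benjamini-Hochberg adjustment 1 was higher (Syt1, 0.0468) and 0 lower, where Elavl3 had 0.0527, Syn1 0.0821 and Snap25 0.0835. The lower count was also 0 with an offset of 16 (Snap25, q = 0.0534), the 75th percentile of the processed signal (-0.59, q = 0.132), median centring, no filter on dim probes and the stricter filter on them, and it was 3 without wild-type replicate 2. The median of the 8 was 0.58, beside 0.03 over all probes. Without either Trp53-/- array no gene passed p and q, where the lone array is assumed to vary like the others. Genotype cannot be told apart here from other differences between the cultures, among them the Y-linked RNA, which was in both wild-type control channels and in neither of the Trp53-/- ones.

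**Figure D4:**
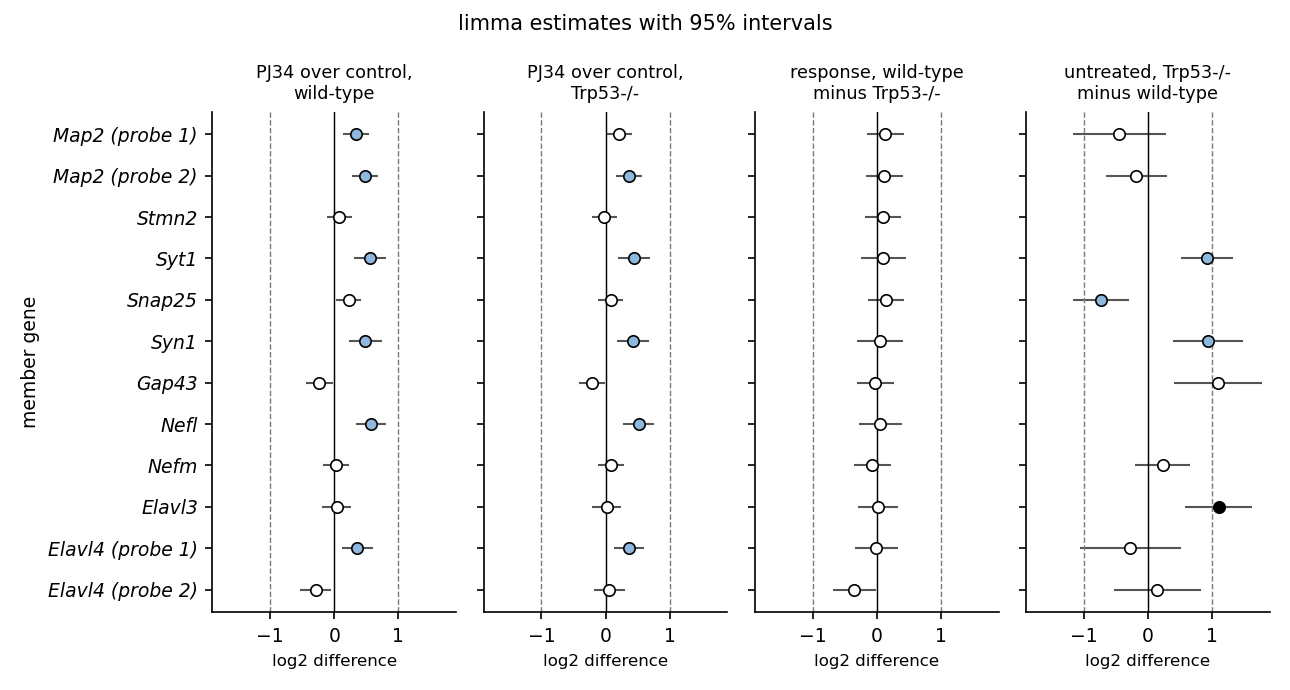
limma estimates (points) with 95% intervals (bars) of the log2 difference (x axis) for the 12 probes (y axis) in 4 comparisons. Black points were called, blue points passed p and q below 0.05 without the fold limit, white points passed neither, and dashed lines mark 2-fold. Elavl3 in the untreated comparison is the single black point, and no interval in the comparison of responses excludes 0 except that of the dimmer Elavl4 probe.

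Markers of other cells moved between the untreated cultures as well. The astrocyte genes Gfap (2.38) and S100b (1.89) were called higher in Trp53-/- cells, Gfap being well above background on 1 of 2 wild-type arrays. The 9 astrocyte markers had a median of 0.23, with 6 above 0 and 3 below, down to -0.58. Of the 10 oligodendrocyte lineage markers 3 were called higher, among them the myelin genes Mbp (1.98) and Mag (1.58), with a median of 0.55. In all, 7 of the 10 were above 0 and 3 below, and 1 passed p and q lower without the fold limit. The mean level of the 9 astrocyte markers was 9.65 and 9.79 on the wild-type arrays and 10.32 and 10.32 on the Trp53-/- arrays. That of the 10 oligodendrocyte lineage markers was 9.53 and 9.82, against 10.45 and 10.46. The 13 neural stem cell markers had 10.68 and 10.53 against 10.57 and 10.56, and none was called. The 8 microglia and blood cell markers had 7.43 and 7.5 against 7.24 and 7.21. The 9 vessel and mesenchyme markers had 7.48 and 7.72 against 7.25 and 7.14. Of these lists 6 of 8 and 6 of 9 were in no control channel, so their means are mostly of probes near background. Of the 2 microglia and blood cell markers tested none was called, and of the 3 vessel and mesenchyme markers tested Kdr was called lower (-1.34). The part of other cell types in the neuronal values was not tested.

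Related genes of the same structures were counted from lists chosen by function. Of 22 axon and cytoskeleton genes tested, 6 were called higher in untreated Trp53-/- cells and 0 lower, with a median of 0.63. Stmn4, a stathmin like Stmn2, was 9.30 and 10.02 in wild-type and 11.76 and 11.87 in Trp53-/- cells (2.15, q = 0.0148). Mapt, which encodes tau, differed by 1.94 (q = 0.0222) and the adhesion molecule Nrcam by 1.34 (q = 0.0186). All 3 had both Trp53-/- arrays above both wild-type arrays. Of 21 genes of synaptic vesicles and release, 1 was higher (Syt11, 1.11, q = 0.0216) and 1 lower (Rab3c, -1.87, q = 0.0499), with a median of 0.49. Of 17 genes of receptors and the postsynaptic density, 1 was higher and 0 lower, with a median of 0.43, and 5 passed p and q higher without the fold limit. Of 14 neuronal RNA-binding proteins and their regulators, 1 was higher (Rbfox3, the antigen NeuN, 1.24, q = 0.0186), with a median of -0.15. Rest, the repressor of neuronal genes outside neurons, had 8.65 and 8.73 against 9.22 and 9.21 (0.52, q = 0.0769), which did not pass.

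**Figure D5:**
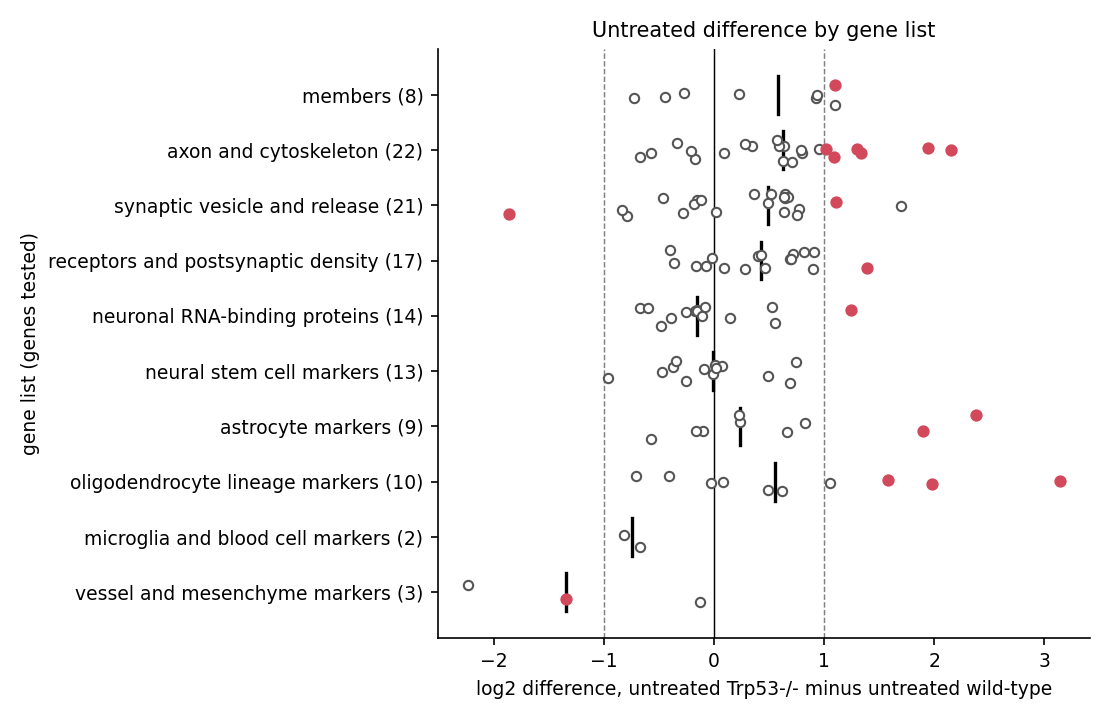
Log2 difference of untreated Trp53-/- minus untreated wild-type (x axis) for each gene tested, by list (y axis, number tested in brackets). Red points were called, open points were not, black bars are medians and dashed lines mark 2-fold. The 6 called axon genes lie between 1.02 and 2.15, and Elavl3 is the called point among the 10 genes.

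With PJ34, no axon and cytoskeleton gene of 22 was called in either genotype. The smallest p belonged to the kinesin Kif5c in wild-type (0.82, q = 0.000467) and to Nrcam in Trp53-/- cells (-0.78, q = 0.000478). Of 23 vesicle genes none was called. Cplx1, a complexin that clamps release, had the smallest p in wild-type (-0.66, q = 0.000563) and the endocytic protein Amph in Trp53-/- cells (0.47, q = 0.00421). Of 19 receptor and postsynaptic genes none was called, with Nrxn2 first in wild-type (0.65, q = 0.00127) and the kinase Camk2a in Trp53-/- cells (0.60, q = 0.00386). The list medians lay between -0.07 and 0.07 in both genotypes.

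Of 14 neuronal RNA-binding proteins and their regulators, Celf5 and Rcor2 were called in wild-type and none in Trp53-/- cells. Celf5 had ratios of 1.54 and 1.39 in wild-type and of -0.23 and -0.18 in Trp53-/- cells, without overlap. It was called higher in wild-type (1.46, q = 1.83e-05) and in the difference between genotypes (1.66, q = 0.000269). Rcor2, a corepressor partner of REST, was called lower in wild-type (-1.05, q = 0.000103). In Trp53-/- cells it had -0.79 and -1.01, a mean of -0.90 (q = 0.000295) that was under the fold limit. The difference between genotypes of Vamp2, a vesicle SNARE, was 0.68 (q = 0.0465), under the fold limit, from 0.68 and 0.35 in wild-type and -0.24 and -0.10 in Trp53-/- cells.

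The promoters of Syn1, Elavl3 and Syt1 are shown because these 3 genes passed p and q in the untreated comparison and had a promoter sequence to search. Snap25, which passed p and q lower, had none. A window from 250 bases before to 50 after the start site was given for 5 of the 10 genes, in 9 windows (RefSeq, GRCm38.p6). Searched on both strands were the core of the RE1 element bound by REST (AGCACCNNGGACAG, with at most 2 mismatches in the 12 defined bases) and the E-boxes CAGCTG and CATCTG. In capitals is the RE1 core match of Syn1 and the CAGCTG E-box of Elavl3 and Syt1. All 3 genes are on the minus strand, and the sequences are written in the direction of the gene.
Syn1, chrX:20920869-20921168: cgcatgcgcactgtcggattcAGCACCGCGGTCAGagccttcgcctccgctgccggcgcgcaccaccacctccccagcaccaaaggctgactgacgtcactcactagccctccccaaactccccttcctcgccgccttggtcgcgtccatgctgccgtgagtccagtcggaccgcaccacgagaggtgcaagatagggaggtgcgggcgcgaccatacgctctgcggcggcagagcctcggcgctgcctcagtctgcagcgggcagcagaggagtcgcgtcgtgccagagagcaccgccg
Elavl3, chr9:22051974-22052273: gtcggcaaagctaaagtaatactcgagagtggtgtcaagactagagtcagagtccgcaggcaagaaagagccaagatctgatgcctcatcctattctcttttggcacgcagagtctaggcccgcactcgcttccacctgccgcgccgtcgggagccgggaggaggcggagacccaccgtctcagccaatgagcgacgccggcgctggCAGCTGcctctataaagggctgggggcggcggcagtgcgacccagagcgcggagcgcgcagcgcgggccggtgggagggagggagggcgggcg
Syt1, chr10:109009062-109009361: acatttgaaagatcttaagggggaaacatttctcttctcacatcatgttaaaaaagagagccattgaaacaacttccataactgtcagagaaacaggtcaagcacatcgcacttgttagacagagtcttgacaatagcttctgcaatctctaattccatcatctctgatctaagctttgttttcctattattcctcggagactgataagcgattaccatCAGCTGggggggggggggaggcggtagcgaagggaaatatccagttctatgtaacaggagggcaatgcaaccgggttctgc
The Syn1 match, at position -229 from the start site, differs from the core at 1 base. An RE1 core was in 1464 of 32851 windows of the same length (4.46%) and in 1 of the 9 windows of the 10 genes. Counted by gene, it was in 1375 of 27025 genes (5.09%) and in 9 of 66 genes of the 4 related lists. CAGCTG was in 16.3% of all windows and in 4 of the 9, the 1 window of Elavl3, 2 of 4 of Elavl4 and 1 of 2 of Syt1. The other Syt1 window (chr10:109010926-109011225) held none of the searched motifs. CATCTG was in 17.2% of all windows and in 3 of the 9, all of Elavl4. Of the Elavl4 windows 2 overlap and hold the same CAGCTG and CATCTG sites, so these sites are counted 2 times. Counted by gene, CAGCTG was in 18.3% of all genes and in 3 of the 5 genes with a window. CATCTG was in 19.2% of all genes and in 1 of the 5. These are matches of letters in a window, and binding was not measured.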

How the data were processed

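NSPC RNA was measured on 4 two-colour arrays, 2 wild-type and 2 Trp53-/-, grouped by their GEO labels. The authors scanned them with Agilent Feature Extraction (version 10.7.3.1, per the submitters' processing notes). The intensity values that the authors deposited are the mean signal of each spot and the median of its local background in each colour. The authors also deposited log10 ratios from that software, which served as an alternative after conversion to log2. A normalized table with 4 columns named by number was not used here.

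With limma 3.58.1 in R 4.3.3, signals were background-corrected by normexp with an offset of 50 and normalized by loess within arrays. Control channels were compared after Aquantile normalization between arrays. Outlier spots (228 to 276 per array) were left out and spots of a probe averaged. The ratios used 27042 probes, those with either channel well above background on the pair of arrays of a genotype, and the untreated levels 22420 probes, by the same rule for the control channel. One linear model with a mean per genotype was fitted over all 4 arrays, and Storey's q was computed over all probes kept. The criteria for a call follow the study's methods, a change of more than 2-fold with p and q both below 0.05. Symbols came through RefSeq accessions (GRCm38.p6) for 26300 probes. Figures were drawn with matplotlib.

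All members' probes are reported, and a gene is read from its brightest probe. Of a related list at most 3 genes per comparison are named, those called by size or else the 1 with the smallest p, and of the marker lists those called. Nrcam and Rcor2 in Trp53-/- cells follow this rule, and Vamp2 was named as the smallest p of its list in the difference. Rest, Tubb3 and Dcx were named outside the rule. The members and lists were chosen with earlier results of these data known. The fits were tested on simulated data. Alternatives covered background, normalization, filter, probe choice, variance model, adjustment, fold limit and each array left out. No block for slides was possible, because each array had its own slide. Some genes that the rule would name are not reported here.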

Additional observations from a re-analysis of the deposited data

How the results depend on the processing

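The count of 0 called genes among the 10 with PJ34 was kept in both genotypes under every alternative run except median centring and removal of the fold limit, and in the difference under all of them. Median centring gave 2 members called higher in wild-type and 4 in Trp53-/- cells. For the related lists (axon, vesicle and receptor genes) it gave 4, 2 and 2 higher in wild-type, 6, 2 and 3 in Trp53-/- cells, and 0 RNA-binding genes lower. Over all probes it gave 1385 higher and 3 lower in wild-type (main 71 and 47) and 4020 and 4 in Trp53-/- cells (19 and 67). It turned the sign of Stmn2 (-0.051 in wild-type, 0.068 in Trp53-/- cells) and Gap43 (0.45, 0.82), and of the difference for Map2 (-0.11), Stmn2 (-0.12), Syt1 (-0.19), Snap25 (-0.063), Syn1 (-0.19) and Elavl3 (-0.25). Without the fold limit 5 members were higher in wild-type and 4 in Trp53-/- cells. The axon, vesicle and receptor lists then had 6, 3 and 5 higher and 5, 3 and 1 lower in wild-type, and 3, 1 and 3 higher and 6, 5 and 1 lower in Trp53-/- cells, with 5 and 3 RNA-binding genes lower and 1 vesicle gene higher in the difference.

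In untreated cells, 1 member was called higher. It was 0 with median centring (chosen after seeing the data, with 0 vesicle and 0 receptor genes higher and 0 vesicle genes lower) and with Benjamini-Hochberg adjustment. It was 2 with an offset of 16, a variance trend, unadjusted p, the mean of a gene's probes and the separate-channel fit, and 3 with no background correction or the 75th percentile of the processed signal. Without the fold limit it was 3 higher and 1 lower, with 2 vesicle and 5 receptor genes higher and 3 vesicle genes lower. Leaving out 1 array gave 0 to 2. Over all probes the 75th percentile gave 898 higher and 1142 lower, against 473 and 488.

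Other sign changes were of small values. Stmn2 in Trp53-/- cells was 0.013 with no background correction, and the difference of Elavl4 was 0.0014 with it, 0.0027 with an offset of 16 and 0.0052 with scaling between arrays. With the scanner software's ratios Elavl3 was -0.049 in wild-type and -0.055 in the difference. Leaving out 1 array gave ranges across 0 for Nefm (-0.018 to 0.061) and Elavl3 (-0.035 to 0.10) in wild-type, Elavl3 in Trp53-/- cells (-0.12 to 0.15) and untreated Elavl4 (-0.76 to 0.21). The differences of responses then ran from -0.11 to 0.32 for Syt1, -0.14 to 0.24 for Syn1, -0.14 to 0.25 for Nefl, -0.11 to 0.15 for Elavl3, -0.20 to 0.19 for Elavl4 and up to 0.073 for Gap43. The cause of these changes was not tested.

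With the replicate number as a block, 2 members were called higher in untreated cells and no PJ34 call changed. Same-numbered arrays did not deviate together (correlation -0.17 for ratios, 0.07 for untreated levels), so the numbers were not taken as pairs. The crossed pairing, chosen after seeing the data, also gave 0 called with PJ34. Signal over background limits Nefl, Nefm and Stmn2.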

Other observations

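The genes whose 4 ratios were most like those of Nefl, the member with the largest mean response, were looked up by Euclidean distance over the 4 arrays. Nefl was dim in its control channel and was kept through its PJ34 channel alone. The nearest of 20231 genes were the transcript ENSMUST00000152456 (distance 0.0484), the transcript TC1716925 (0.0941) and the ribosomal protein gene Rps27 (0.115). Rps27 had ratios of 0.37 and 0.69 in wild-type and of 0.48 and 0.42 in Trp53-/- cells. In all, 655 genes lay within a distance of 0.5.

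Hes5, a Notch effector that keeps progenitors undifferentiated, was the 1 neural stem cell marker of 13 called with PJ34. It had ratios of -2.01 and -1.5 in wild-type and of -0.85 and -0.44 in Trp53-/- cells, and was called lower in wild-type (-1.76) and in the difference between genotypes (-1.11, q = 0.0189). The list went both ways. Without the fold limit 5 of the 13 passed p and q lower and 3 higher in wild-type, with a median of -0.15. In Trp53-/- cells 3 passed lower and 2 higher, with a median of -0.14.

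Tubb3 and Dcx, which mark young neurons, had differences of 0.62 (q = 0.0672) and 0.64 (q = 0.0728) between the untreated genotypes, and neither passed. For each, both Trp53-/- arrays were above both wild-type arrays, an order that 29.8% of all probes had.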
